A study of Mus musculus with 4 samples.

Results

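The 10 genes described here encode the subunits of the main integrins of white blood cells: the alpha chains Itgal, Itgam, Itgax, Itgad, Itga4 and Itgav, and the beta chains Itgb2, Itgb1, Itgb7 and Itgb5. They were followed through the accessible chromatin around them in 4 ATAC-seq libraries of microglia, macrophages that live within the brain. ATAC-seq uses a transposase that inserts adapters where DNA is exposed, so that a peak marks an open stretch of chromatin. Every deposited peak that overlapped one of the gene bodies or the 10 kb on either side was taken. Peaks that passed −log10 q of 2 in at least 1 library, called strict, were merged into regions, and these windows held 145 of 155546 regions (0.0932%). The windows of 3 genes on chromosome 7, Itgam, Itgax and Itgad, lie side by side and overlap in part, and a region in 2 windows was counted once, so that the windows cover 739 kb in 8 blocks.

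All 4 libraries came from untreated C57BL/6 mice, 3 months old, and from cells sorted by flow cytometry as microglia. In 2 libraries the genotype was WT and in 2 it was IRF8KO, a knockout of Irf8, a transcription factor that macrophages need for their development. The comparison asks which of the open regions differ with this factor missing. The labels give neither the knockout allele nor the gate of the sort. They do not say whether replicates 1 and 2 came from separate animals, so p-values measure only the spread between these libraries, which may be technical.

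An integrin is a pair of 1 alpha and 1 beta chain that spans the cell membrane, binds matrix or a partner on another cell outside, and links to the actin cytoskeleton through talin and kindlin inside. Itgb2 pairs with Itgal (LFA-1), Itgam (complement receptor 3, CD11b), Itgax (CD11c) and Itgad (CD11d), and these pairs carry leukocyte adhesion and the uptake of complement-coated material. Itga4 pairs with Itgb1 or Itgb7 and lets lymphocytes and monocytes bind to VCAM-1 or MAdCAM-1 on vessels. Itgav pairs with Itgb5, among other beta chains, binds vitronectin, and takes part in the uptake of dying cells and in the release of active TGF-beta. CD11b is a surface protein commonly used to sort microglia, and Itgax marks a subset of microglia in development, ageing and disease.

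Sequences are shown for 8 regions as examples, 3 called higher, 3 open in WT only and 2 lower in IRF8KO, chosen after their values and motifs were seen. Each is 201 bases centred on the summit, from the plus strand of GRCm38. Capitals mark matches on either strand to 1 of 7 short motifs of factors active in macrophages: an ETS-IRF composite element (GGAA, any 2 bases, then GAAA), an interferon response element, ISRE (GAAA, any 2 bases, then GAAA), a PU.1 site (GAGGAAGT), and AP-1 (TGANTCA), CEBP (TTGCNNAA), RUNX (TGTGGTT) and GC box (GGGCGG) sites. Some motifs can overlap: a PU.1 site with GAAA right after it is also an ETS-IRF match. The first 3 sequences lay in regions that were higher in IRF8KO, at chr2:79254753-79254953, chr2:79257056-79257256 and chr7:127288048-127288248.
Itga4, 573 bp upstream: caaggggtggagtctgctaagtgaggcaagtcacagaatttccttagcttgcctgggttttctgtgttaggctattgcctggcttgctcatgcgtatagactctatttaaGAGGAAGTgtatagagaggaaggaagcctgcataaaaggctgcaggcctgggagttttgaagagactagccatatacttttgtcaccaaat
Itga4, 1.73 kb downstream: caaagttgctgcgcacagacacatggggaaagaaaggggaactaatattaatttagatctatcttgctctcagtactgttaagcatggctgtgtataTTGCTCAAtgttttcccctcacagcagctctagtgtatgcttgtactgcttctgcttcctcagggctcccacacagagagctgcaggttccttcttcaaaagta
Itgal window, near Gm31897: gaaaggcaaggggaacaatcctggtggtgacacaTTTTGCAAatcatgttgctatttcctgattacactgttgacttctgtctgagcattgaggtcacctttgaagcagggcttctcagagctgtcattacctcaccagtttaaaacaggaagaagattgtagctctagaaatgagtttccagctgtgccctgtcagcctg
The upstream region of Itga4 held a PU.1 site 14 bp from its summit, the next region of Itga4 held a CEBP site at its summit, and the region near Gm31897 held a CEBP site on the minus strand. The next 3 sequences come from regions that were open in both WT libraries only and were picked because they hold an ETS-IRF element or an ISRE, which the other 4 WT-only regions lack. They lie at chr2:83742904-83743104, chr2:83768739-83768939 and chr15:102232182-102232382.
Itgav, intron, 18.6 kb: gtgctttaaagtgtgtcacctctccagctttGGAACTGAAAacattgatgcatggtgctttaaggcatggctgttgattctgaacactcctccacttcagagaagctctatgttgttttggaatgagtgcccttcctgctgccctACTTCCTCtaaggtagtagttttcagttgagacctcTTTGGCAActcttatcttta
Itgav, intron, 44.4 kb: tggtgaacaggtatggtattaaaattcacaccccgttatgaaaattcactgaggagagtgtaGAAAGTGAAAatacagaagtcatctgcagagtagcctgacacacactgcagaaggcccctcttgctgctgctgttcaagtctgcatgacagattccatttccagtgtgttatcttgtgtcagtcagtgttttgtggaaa
Itgb7, 338 bp upstream: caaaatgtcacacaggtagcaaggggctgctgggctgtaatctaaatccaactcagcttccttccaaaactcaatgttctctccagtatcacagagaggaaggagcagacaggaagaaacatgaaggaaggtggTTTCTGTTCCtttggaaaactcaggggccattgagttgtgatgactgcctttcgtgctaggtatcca
The first Itgav sequence held an ETS-IRF element, a PU.1 site and a CEBP site, the second held an ISRE, and the Itgb7 sequence held an ETS-IRF element on the minus strand. The last 2 belong to regions that were lower in IRF8KO, a called one of Itgb2 and an untested one of Itgax, at chr10:77565824-77566024 and chr7:128128855-128129055, and neither held any of the 7 motifs.
Itgb2, 35.7 kb: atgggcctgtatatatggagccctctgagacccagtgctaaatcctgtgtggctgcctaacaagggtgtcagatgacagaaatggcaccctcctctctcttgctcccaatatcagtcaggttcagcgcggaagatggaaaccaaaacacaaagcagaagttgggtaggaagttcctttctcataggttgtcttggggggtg
Itgax, 592 bp upstream: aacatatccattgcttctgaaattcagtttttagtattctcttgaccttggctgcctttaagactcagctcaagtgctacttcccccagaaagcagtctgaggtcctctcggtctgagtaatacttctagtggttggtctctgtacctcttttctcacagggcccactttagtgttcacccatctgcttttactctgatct

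The libraries differed in depth with genotype. The headers list 46948938 tags for WT replicate 1, 48896408 for WT replicate 2, 78793572 for IRF8KO replicate 1 and 66224648 for IRF8KO replicate 2. The tag size was 50 bp in WT and 49 bp in IRF8KO, so effects of depth and tag size cannot be told apart from genotype. A level here is the highest deposited pileup in a region per 1000000 tags of the library, a height and not a sum over its length. At the promoters of 10 microglial genes, strict peaks were found for all 10 in WT and for 9 in IRF8KO, where Sall1 had none, and their summed level was 29.99 and 22.8 in WT and 11.5 and 18.3 in IRF8KO. Across the 58550 regions of the genome that had a deposited peak in all 4 libraries, the median log2 difference, IRF8KO minus WT, was -0.31. Differences are reported on this scale and, where it matters, also after centring every library on its median region.

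In the integrin windows, 89 regions had a peak in all 4 libraries and were tested, and 73 regions were strict in all 4. Another 29 regions were strict in 1 library only. The limma fit over all tested regions, with Benjamini-Hochberg adjustment and a threshold of 0.05, called 4 of the 89 higher in IRF8KO (4.49%), against 2.8% of all tested regions. It called 4 lower (4.49%), against 6.68% of all. The higher regions lay in the windows of Itga4 (2 regions), Itgal and Itgb5, and the lower ones in those of Itgb2 and Itgb5 (2 regions each). Itgam, Itgax, Itgad, Itgb1, Itgav and Itgb7 had no region past the threshold.

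**Figure D1:**
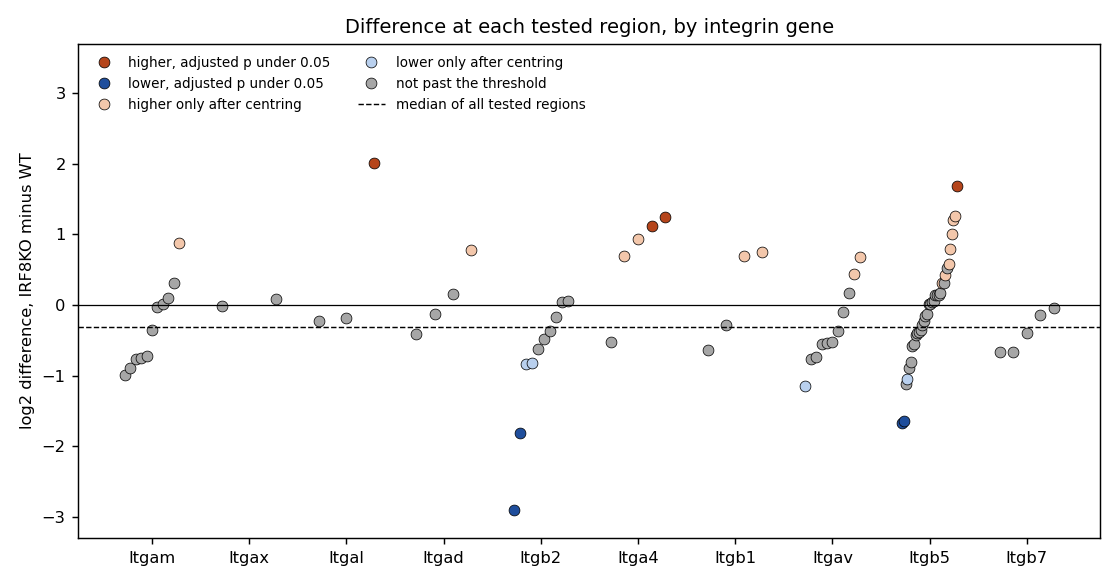
Log2 difference in pileup per 1000000 tags, IRF8KO minus WT, of each of the 89 tested regions (points), grouped by integrin gene. The dashed line marks the median of all tested regions of the genome, -0.31. Most points lie between -1 and 1, with Itgb2 holding the lowest value (-2.90) and the Itgal window the highest (2.02).

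The median difference of the 89 regions was -0.16, against -0.31 over the genome, and after centring it was 0.14, against -0.00182. The IRF8KO values lay both above the WT values in 18 of the 89 regions (20.2%, against 11.9% of all tested) and both below them in 28 (31.5%, against 37.1%). After centring, 19 regions were called higher (21.3%, against 13.4% of all tested regions) and 8 lower (8.99%, against 12.5%), and the 8 calls made without centring were all among them. The calls hung on which libraries entered. Without WT replicate 1 no region was called in either direction, and without WT replicate 2 a single one was, the Itgb2 region at 35.7 kb. The differences themselves stayed large without WT replicate 1, for example 2.23 ± 0.88 (SE) in the Itgal window and -2.70 ± 0.84 at that Itgb2 region. Leaving out IRF8KO replicate 1 or 2 also changed the counts, with 97 and 90 regions tested. At the Itgb2 region at 35.7 kb the difference was then -2.71 and -3.10, and in the Itgal window 2.31 and 1.73. The share over all tested regions is not given for these settings, so the changed counts are not read as particular to these windows. Within a genotype, WT replicate 1 lay above replicate 2 in 74 of 89 regions, by a median of 1.29-fold, and IRF8KO replicate 2 lay above replicate 1 in 82 of 89, by 1.44-fold.

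Regions open in a single genotype, with strict peaks in both of its libraries and no deposited peak in the other genotype, numbered 7 for WT (4.83% of 145, against 5.58% of all regions) and 7 for IRF8KO (4.83%, against 3.86%). The presence of peaks in these libraries chose both classes, so their levels are given as a description, with no test. All 3 WT-only regions of Itgav, both of Itgam and 1 each of Itgal and Itgb7 make up the first class. The second class has 2 regions each in the windows of Itgal and Itgad and 1 each in those of Itga4, Itgb1 and Itgb2. The deposited pileups in these 14 regions were 11 to 54, and the part of depth in their absence from the other genotype was not tested.

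**Figure D2:**
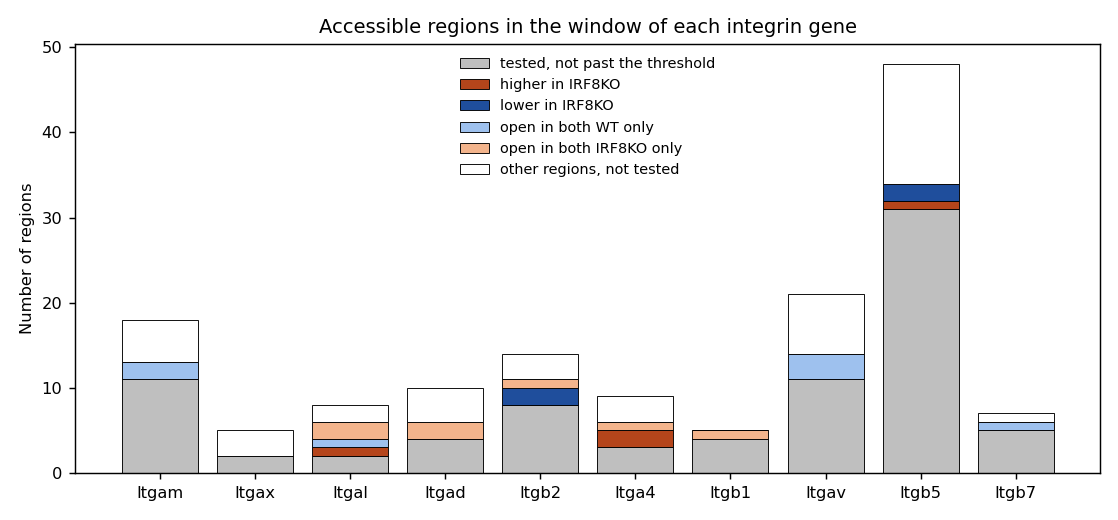
Number of regions in the window of each integrin gene (bars), split by what was found. Itgb5 held 48 regions, and Itgax and Itgb1 held 5 each. WT-only regions fell to Itgam, Itgal, Itgav and Itgb7 and IRF8KO-only regions to Itgal, Itgad, Itgb2, Itga4 and Itgb1.

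The start sites of the integrin genes were open in these microglia at very different levels, and most did not differ between the genotypes beyond the spread of the replicates. The region over the Itgav start had a level of 4.35 and 4.70 in WT and 3.45 and 5.19 in IRF8KO, with overlapping groups. At Itgb1 the levels were 2.15 and 2.25 in WT and 1.52 and 2.13 in IRF8KO, and at Itgb5 1.30 and 1.47 in WT and 0.838 and 1.39 in IRF8KO. Itgb1 and Itgb5, chains of matrix receptors, were thus open at the start in every library. Itgal had 1.64 and 0.879 in WT and 0.863 and 1.28 in IRF8KO, and Itgam had 1.13 and 0.961 in WT and 0.647 and 1.03 in IRF8KO. Itgax was lower, at 0.532 and 0.266 in WT and 0.393 and 0.408 in IRF8KO. Itgb7 had 0.213 and 0.245 in WT, no peak in IRF8KO replicate 1 and 0.196 in IRF8KO replicate 2. Itgad had no region within 1 kb of its annotated 5′ end; an IRF8KO-only region 50.6 kb further on lay within 1 kb of the start of another Itgad transcript. By mean over the 4 libraries the order was Itgav, Itga4, Itgb1, Itgb2, Itgb5, Itgal, Itgam, Itgax and Itgb7, and neighbours in this order overlapped in their values, except Itgam with Itgax and Itgax with Itgb7. At the Itgb2 start the levels were 2.62 and 2.19 in WT and 0.888 and 2.01 in IRF8KO, a log2 difference of -0.84 ± 0.43 (SE, n = 2 each) with a limma adjusted p of 0.254 that became 0.0467 after centring, where the difference was -0.54. It was -0.25 without IRF8KO replicate 1 and -1.43, with a limma adjusted p of 0.00325, without IRF8KO replicate 2. Of the tested regions, 16 lay within 1 kb of a transcript start of any gene, with 2 called higher and none lower and a median of -0.03. These 2 were the Itga4 start and a region at a start of Gm31897, not an integrin gene. The 73 that lay elsewhere had 2 higher and 4 lower and a median of -0.17. Over all tested regions, at starts or not, 2.8% were higher and 6.68% lower, and the same split over them is not given.

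**Figure D3:**
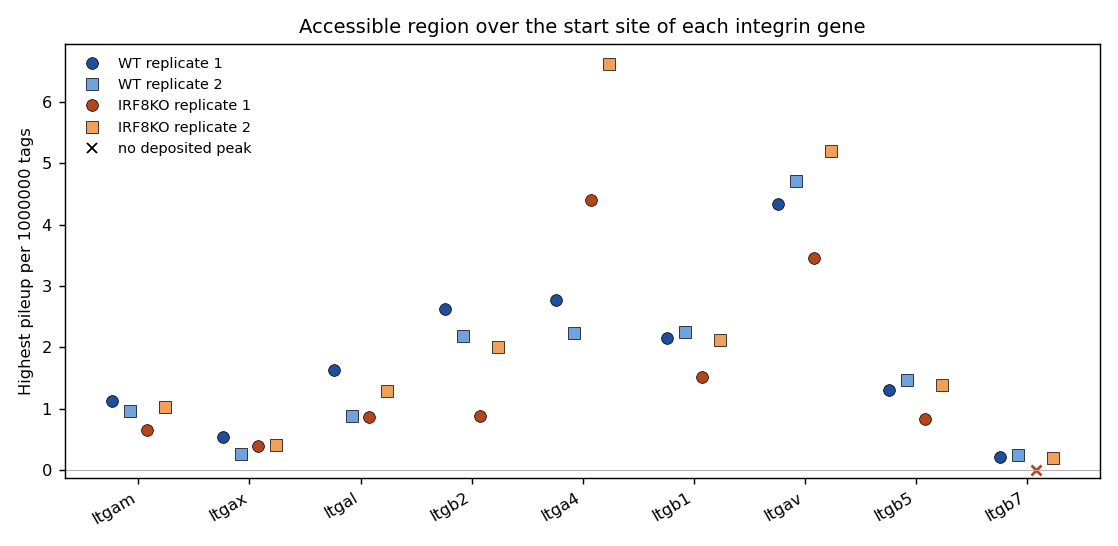
Highest pileup per 1000000 tags in the region over the start site of each integrin gene (points are single libraries, WT in blue and IRF8KO in orange, a cross marks no deposited peak). Itga4 is the gene with both IRF8KO values above both WT values at the start and an adjusted p under 0.05. The separate region 592 bp upstream of the Itgax start is not drawn.

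Itgb2, on the plus strand at chr10:77530252-77565708, encodes the beta chain shared by the leukocyte integrins, and its window held 14 regions. The strongest of them, in an intron 20.9 kb from the start, had overlapping values in the genotypes, 5.71 and 4.68 in WT and 4.59 and 6.25 in IRF8KO. This was the strongest region of all 10 genes by its mean. The region just past the end of the gene, at chr10:77565758-77566084 and 35.7 kb from the start, had 1.26 and 0.941 in WT and 0.127 and 0.166 in IRF8KO. Both IRF8KO values lay near the lowest pileups listed for those libraries, and the groups were far apart. The log2 difference was -2.90 ± 0.53 (SE), a level 7.49-fold higher in WT, with a limma adjusted p of 4.13e-06. The other lower region, at chr10:77540690-77541178 in an intron 10.6 kb from the start, had 4.17 and 2.41 in WT and 0.736 and 1.12 in IRF8KO, a log2 difference of -1.81 ± 0.44 (SE) and an adjusted p of 0.0011 by limma. In WT it was among the 3 strongest regions of the gene, and its level there was 3.50-fold that in IRF8KO. After centring, 4 of the 10 tested Itgb2 regions were lower and none higher, against 12.5% and 13.4% of all tested regions. Besides the 2 regions above, the lower ones were the start and an intronic region 6.71 kb from it. An intronic region 18.6 kb from the start went the other way: it was open in IRF8KO only, at 0.419 and 0.680, and held a PU.1 site. In a bulk sample, fewer cells with an open region and less opening per cell cannot be told apart.

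Itgam, on the plus strand at chr7:128062640-128118491, had 18 regions and no difference past the threshold among 11 tested. Its strongest region, in an intron 26.7 kb from the start, had 1.73 and 1.45 in WT and 1.35 and 1.89 in IRF8KO, overlapping groups. Open in WT only were a coding exon 17.6 kb from the start (0.426 and 0.327) and an intronic region 47.9 kb from it (0.554 and 0.511), the latter with a CEBP site. An intronic region 967 bp from the start, which is also within 1 kb of a start of the overlapping gene Gm49368, had 0.809 and 0.695 in WT and 1.19 and 1.59 in IRF8KO. Its groups did not overlap, and it passed the limma threshold only after centring, with a log2 difference of 1.18.

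Itgax, on the plus strand at chr7:128129547-128150657, had a region with a large gap between the genotypes that the test did not cover. The region 592 bp upstream of the start, at chr7:128128860-128129109, had 2.49 and 1.64 in WT, no deposited peak in IRF8KO replicate 1 and 0.227 in IRF8KO replicate 2. In both WT libraries it exceeded the region over the start itself, which had similar levels in the genotypes. This region was singled out after its values were seen, and no test is given for it. The strongest region by its mean, 4.36 kb downstream of the start, had 1.96 and 1.25 in WT and 1.51 and 1.59 in IRF8KO, with the WT values on either side of the IRF8KO ones. Levels at the start and at 4.36 kb thus did not separate the genotypes.

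Itgal, on the plus strand at chr7:127296260-127335138, and the window of Itgad, at chr7:128154376-128223816 on the plus strand, held small regions open in IRF8KO only. In the Itgal window, a region 8.11 kb upstream of the gene, at chr7:127287992-127288319 and within 1 kb of a start of the predicted gene Gm31897, had 0.277 and 0.205 in WT and 0.787 and 1.18 in IRF8KO. Both IRF8KO values were more than any WT value, with a log2 difference of 2.02 ± 0.53 (SE), 4.05-fold, and a limma adjusted p of 0.00305. Open in IRF8KO only were regions 6.76 kb upstream (0.305 and 0.242) and 1.08 kb downstream (0.355 and 0.393) of the Itgal start. A region 6.98 kb downstream was open in WT only (0.596 and 0.491), so the Itgal window carried regions of both kinds. The Itgad window held IRF8KO-only regions 24.3 kb (0.152 and 0.242) and 50.6 kb (0.216 and 0.544) from the annotated start. The strongest Itgad region, 66.8 kb from the start, had 1.73 and 1.31 in WT and 1.46 and 1.92 in IRF8KO, with overlap.

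Itga4, on the plus strand at chr2:79255426-79333123, had 2 regions past the threshold, both higher in IRF8KO. The region over its start, at chr2:79254646-79255652 with its summit 573 bp upstream, had 2.77 and 2.23 in WT and 4.40 and 6.61 in IRF8KO. Both IRF8KO values lay above both WT values, a log2 difference of 1.12 ± 0.38 (SE), 2.17-fold, with a limma adjusted p of 0.0402. A region in a non-coding exon 1.73 kb downstream, at chr2:79256992-79257305, had 1.92 and 1.15 in WT and 2.91 and 4.27 in IRF8KO, a log2 difference of 1.25 ± 0.41 (SE), 2.38-fold, with an adjusted p of 0.0311 by limma. Both calls also needed IRF8KO replicate 2: without it the limma adjusted p was 0.0820 and 0.0547. Of the 5 tested Itga4 regions, 4 were called higher after centring and none lower, against 13.4% and 12.5% of all tested regions. A coding-exon region 429 bp downstream had no peak in WT replicate 1, 0.491 in WT replicate 2, and 0.977 and 1.03 in IRF8KO. An intronic region 66.4 kb from the start was open in IRF8KO only, at 0.178 and 0.347. Markers of other immune cells moved in both directions. Promoters of border macrophage genes were strict for 2 or 3 of 5 genes in each library, with a summed level of 0.788 and 0.920 in WT and 1.87 and 3.20 in IRF8KO, and Cd163 and Lyve1 had no promoter peak in any library. Of 6 T cell genes only Cd3d had a strict promoter, at 0.873 and 1.08 in WT and 3.44 in each IRF8KO library, while Cd3e, Cd3g, Cd4, Cd8a and Trac had none. The summed promoter level of 5 B cell genes was lower in IRF8KO, with 0.916 and 0.716 in WT against 0.482 and 0.483, and that of 7 neutrophil genes was 0.234 and 0 in WT against 0.178 and 0.257. The part of such cells in the Itga4 result was not tested.

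**Figure D4:**
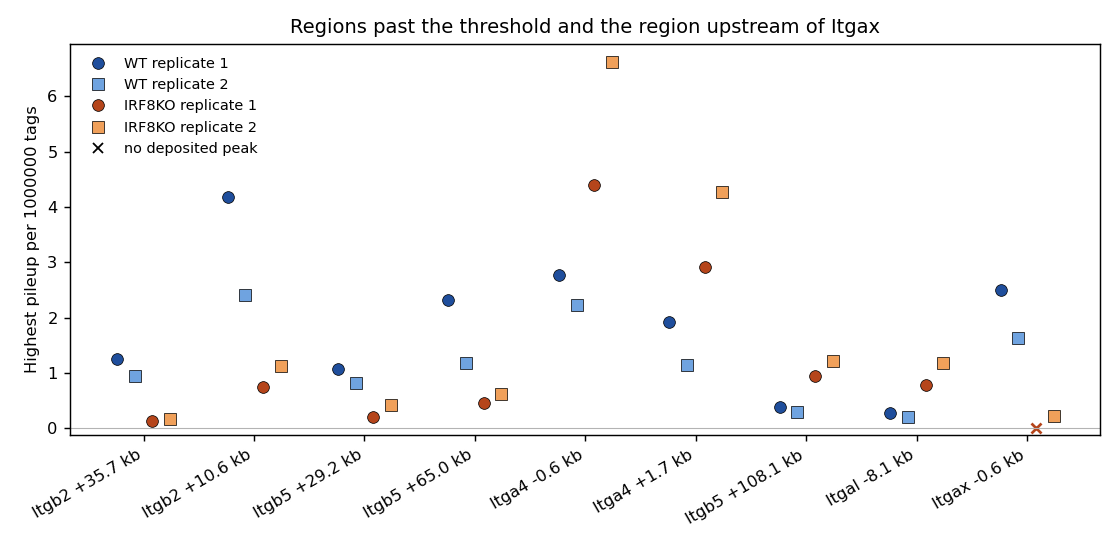
Highest pileup per 1000000 tags in the 8 regions past the threshold and in the region upstream of Itgax (points are single libraries, a cross marks no deposited peak; the label gives the distance of the summit from the gene start). In each of the 8 regions past the threshold the WT and IRF8KO values do not overlap, which selection on these same values made likely. Over all tested regions, both IRF8KO values lay above both WT values in 11.9% and below them in 37.1%.

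The beta chains that pair with Itga4 had no region past the threshold. Itgb1, at chr8:128685654-128733200 on the plus strand, had 5 regions, of which 4 were tested. At its start, its strongest region, the log2 difference was -0.29 with a limma adjusted p of 0.764. Upstream regions 5.72 kb and 4.93 kb from the start passed only after centring, both higher, and a region 39.4 kb downstream was open in IRF8KO only (0.178 and 0.347). Itgb7, on the minus strand at chr15:102215995-102231944, had 7 regions of low level, and the strongest, 7.27 kb downstream, had 0.724 and 0.716 in WT and 0.698 and 0.695 in IRF8KO. A region 338 bp upstream of the Itgb7 start was open in WT only, at 0.234 and 0.225.

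Itgav, at chr2:83724397-83806916 on the plus strand, carried 3 of the 7 WT-only regions, all in introns, while its start was open alike in the 4 libraries within their spread (log2 difference -0.09 ± 0.37, SE, limma adjusted p 0.919). The region 18.6 kb from the start had 1.15 and 0.839 in WT and no deposited peak in IRF8KO, the highest level of any WT-only region in these windows. The regions at chr2:83754306-83754755 (0.469 and 0.491) and 44.4 kb from the start (0.341 and 0.307) were weaker. Next to the first, an intronic region 18.0 kb from the start had 3.22 and 2.49 in WT and 1.03 and 1.60 in IRF8KO. Its groups did not overlap, but its log2 difference of -1.14 had a limma adjusted p of 0.0691. It was called lower after centring (-0.84) and without IRF8KO replicate 2 (-1.46, limma adjusted p 0.00182). In the other direction, intronic regions 4.17 kb and 5.18 kb from the Itgav start were called higher only after centring.

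Itgb5, at chr16:33829665-33949338 on the plus strand, is the longest of the 10 genes and had 48 regions, of which 28 were strict in every library. Its strongest region, in a non-coding exon 92.8 kb from the start, had 4.24 and 2.95 in WT and 2.32 and 3.91 in IRF8KO, with overlap. Open regions along it moved in opposite directions. The region at chr16:33937586-33938038, 108 kb from the start, had 0.383 and 0.286 in WT and 0.939 and 1.21 in IRF8KO, a log2 difference of 1.68 ± 0.52 (SE), 3.21-fold, with a limma adjusted p of 0.0171. The region at chr16:33858724-33858973, 29.2 kb from the start, had 1.06 and 0.818 in WT and 0.203 and 0.423 in IRF8KO, a difference of -1.67 ± 0.52 (SE) and an adjusted p of 0.0201 by limma, which was 0.0880 without IRF8KO replicate 1. The region at chr16:33894554-33894841, 65.0 kb from the start, had 2.32 and 1.19 in WT and 0.457 and 0.619 in IRF8KO, a difference of -1.64 ± 0.49 (SE) and an adjusted p of 0.0122 by limma. Levels in WT were 3.19-fold and 3.12-fold those in IRF8KO at the latter 2, and all 3 lay in introns. After centring, 8 of the 34 tested Itgb5 regions were higher and 3 lower, against 13.4% and 12.5% of all tested regions. Of the higher ones, 3 lay 103 to 105 kb from the start. Between them and the region at 108 kb, a region at 107 kb had 1.09 and 1.19 in WT and 0.723 and 0.8003 in IRF8KO, a log2 difference of -0.58 that was not called. Promoters of 4 endothelial genes, a cell type that uses both chains, had a summed level of 6.73 and 5.38 in WT and 1.18 and 1.81 in IRF8KO, with strict peaks for 2 or 3 of the 4 in each library. That fall came from Cdh5 (5.86 and 4.81 in WT, 0.647 and 0.936 in IRF8KO), while Pecam1 had 0.618 and 0.573 in WT and 0.533 and 0.876 in IRF8KO and Tek had no peak. The part of such cells in the Itgav and Itgb5 values was not tested.

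**Figure D5:**
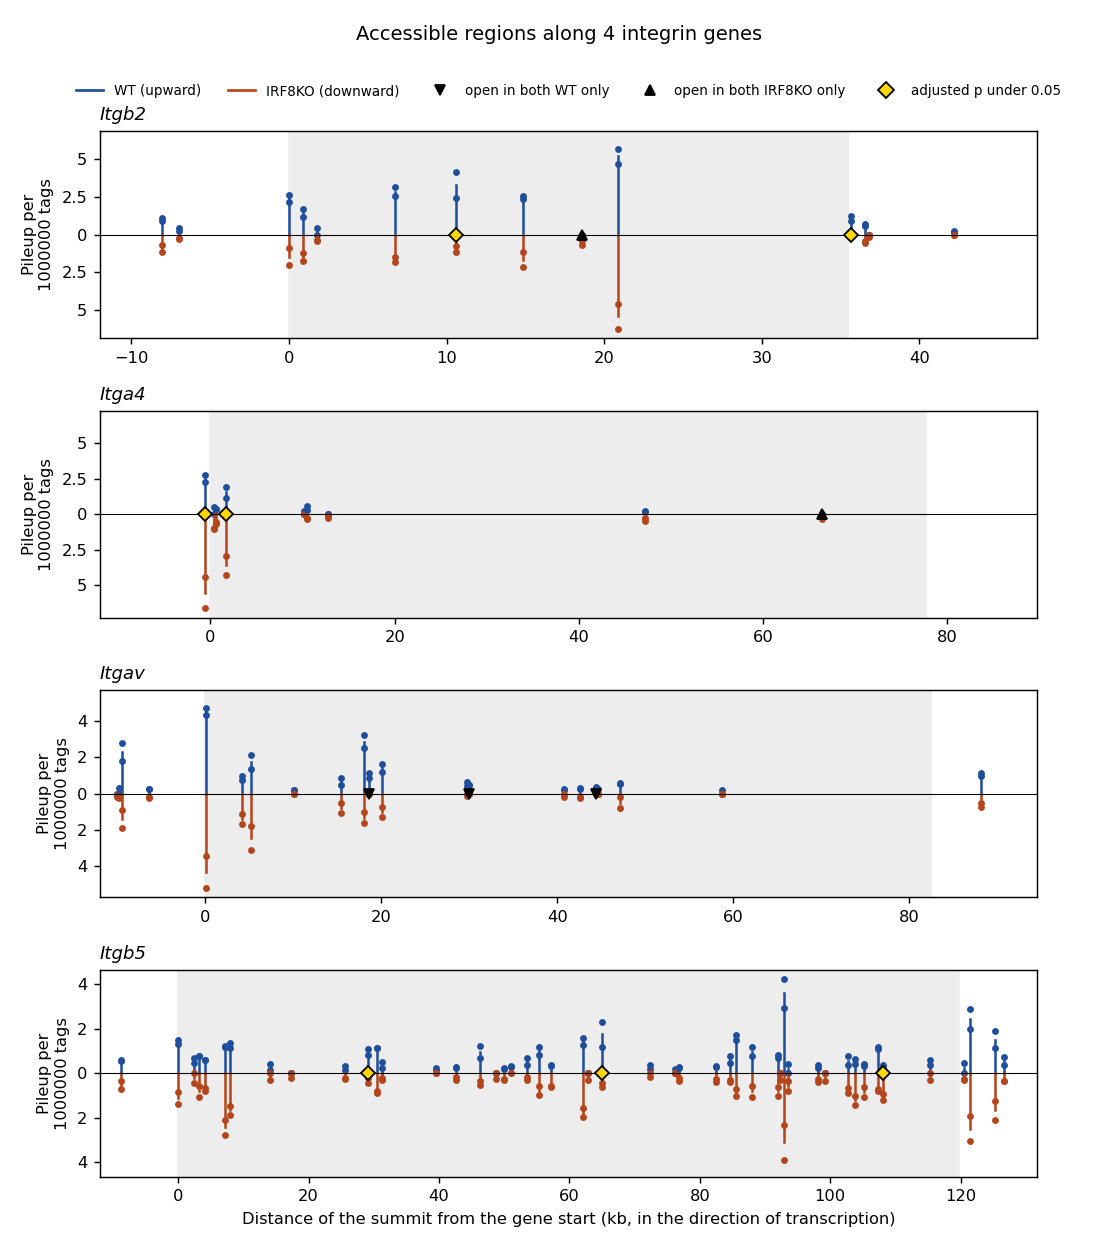
Open regions along Itgb2, Itga4, Itgav and Itgb5 (horizontal axis, distance from the gene start in kb; grey, gene body). Vertical axis, highest pileup per 1000000 tags, WT upward and IRF8KO downward, with points for single libraries and lines to the mean; a library without a peak is drawn at 0. Called regions (diamonds) lie at the start of Itga4, inside and just past the end of Itgb2, and at 3 places along Itgb5, and the WT-only regions of Itgav (triangles) lie in its introns.

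The regions shared few features beyond their position near these genes. By their place in the annotation, 92 of the 145 lay in introns, 31 between genes, 9 in coding exons, 8 in untranslated parts of exons and 5 in non-coding exons. Their median length was 254 bp, against 197 bp for all regions, and their median GC content was 49.8%, against 49.3%. PU.1 sites lay within 100 bp of the summit in 17 of the 145 (11.7%, against 7.73% of all regions) and AP-1 sites in 18 (12.4%, against 8.12%). An ETS-IRF element was found in 5 (3.45%, against 4.31%), an ISRE in 5 (3.45%, against 3.12%), a CEBP site in 15 (10.3%, against 9.54%), a RUNX site in 7 (4.83%, against 5.58%) and a GC box in 8 (5.52%, against 11.03%). Of the 7 WT-only regions, 2 held an ETS-IRF element, the Itgav region at 18.6 kb and the Itgb7 upstream region, as did 18.7% of all WT-only regions of the genome. None of the 7 IRF8KO-only regions held one, against 1.83% of that class. None of the 4 lower regions held one either, against 15.8% of all lower regions. Of the 4 higher regions 2 held a CEBP site, against 21.3% of all higher regions. So did 2 of the 7 IRF8KO-only regions (20.6% of that class) and 2 of the 7 WT-only ones (8.45%). An AP-1 site was found in none of the higher or IRF8KO-only regions, against 24.1% and 18.9% of those classes. These are matches of letters and are given as descriptions.

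The rest of the integrin system was counted from lists of related genes. Windows of 17 other integrin genes held 225 regions, and of 85 tested 2 were higher and 4 lower, with a median difference of -0.17. Windows of 23 genes for integrin activation and adaptors, the proteins that tie the tails to actin, held 339 regions, of which 190 were tested, 5 higher and 10 lower, with a median of -0.31, against -0.31 over the genome. Windows of 16 ligand genes held 83 regions, of which 38 were tested, none higher and 3 lower, with a median of -0.54. WT-only and IRF8KO-only regions numbered 9 and 9 for the other integrins, 14 and 5 for the adaptors and 6 and 2 for the ligands. Over the genome, 2.8% of tested regions were higher, 6.68% were lower, and 5.58% and 3.86% of all regions were open in WT only and in IRF8KO only.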

How the data were processed

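ATAC-seq peak lists of 2 WT and 2 IRF8KO libraries were used, grouped by their labels. Per the submitters' processing notes, bcl2fastq, Bowtie2, MACS2 2.1.1.20160309 and deepTools were used and the build was mm10. Per the file headers, each library had its own MACS2 run by the authors, without a control, at a p-value cutoff of 0.01, with cut sites moved by -37 bp and extended to 73 bp, a shift that suits transposase cut sites. The deposited pileup is an unscaled signal at a summit. The deposited fold enrichment is a ratio to local background within a library and was not compared between libraries. The deposited p and q values are −log10 values, and q was used only to call a peak strict (2 or more). Greater depth brings weaker peaks past the cutoff, so absence depends on depth. Pileups are whole numbers of cut sites without molecular identifiers.

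Strict peaks on chromosomes 1 to 19 and X were merged into regions. The highest pileup of any overlapping deposited peak (1 bp), per 1000000 tags in the header, was log2 transformed without a pseudocount, and regions with a peak in all 4 libraries were fitted with limma 3.58.1 (trend, robust). Coordinates and gene models are GRCm38 and GENCODE M21, counted from 1. A gene start is the 5′ end of its annotated model. Motifs were searched within 100 bp of the summit with python 3.11.15. The fit was tested on simulated data.

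The genes, gene lists and motifs were chosen with earlier results of these data known. Regions named are, for each gene, the one over its start, its strongest by mean level, the single-genotype regions and those past the limma threshold. The Itgax upstream region, the Itga4 coding-exon region, the Itgb5 region at 107 kb and regions called only after centring were named after their values were seen. Alternatives were a stricter q of 5, all deposited peaks, an overlap of 50%, gene bodies without flanks, centring, a replicate block, a mean pileup of at least 30, imputing absent peaks, and leaving out each library.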

Additional observations from a re-analysis of the deposited data

How the results depend on the processing

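Regions called higher numbered 4 of 89, and 19 of 89 after centring and 7 of 145 with absent peaks imputed. Regions called lower numbered 4 of 89, and 8 of 89 after centring and 14 of 145 with imputed peaks. Both counts also moved with a library left out. Shares over all regions are given above for the main and centred fits only. With the replicate block the counts were 0 higher and 1 lower, and the 1 was the Itgb2 region at 35.7 kb, with a limma adjusted p of 0.00968. The numbers were not found to pair the libraries: the correlation of deviations between same-numbered libraries was 0.00438. WT-only regions numbered 7, and 8 to 15 with a library left out. IRF8KO-only regions numbered 7, 2 at −log10 q of 5, and 8 to 12 with a library left out, where 1 library alone had to hold or lack the peak in its genotype. Merging all deposited peaks, an overlap of 50%, the pileup minimum of 30 and gene bodies alone left the other counts within 1.5 times of those reported. None of the 8 called regions turned its direction under centring, the block or a left-out library. Start regions that were not called did: centring moved those of Itgav, Itgal and Itgb1 to 0.21, 0.11 and 0.02, and leaving out a library turned those of Itgav, Itgal, Itgax and Itgb5. Without WT replicate 1 none of the 8 calls passed the threshold, and without WT replicate 2 a single one did. A left-out library leaves 1 in its group, whose spread is then assumed to be that of the other group. Low pileups are the values most limited by depth.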
